A study of Rattus norvegicus with 12 samples.

Results

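The 9 genes described here carry the interferon response from its trigger to its transcription factors: Irf9, Stat2, Irf7, Irf3, Irf1, Irf2, Ddx58, Ifih1 and Dhx58. They were taken by gene name from a table of 18344 rows, which held all 9 of them once each, and all 9 passed the filter on low values. The table gives the expression of each gene in 12 poly-A RNA sequencing libraries as FPKM, which corrects the fragments of a gene for its transcript length and for the size of the library. All libraries came from rat cells put through oxygen-glucose deprivation with reperfusion (OGD/R), a culture model of ischaemia in which oxygen and glucose are withdrawn and then given back. The 4 groups of 3 libraries were labelled OGD/R with NC, OGD/R with CIRBP, OGD/R with si-NC and OGD/R with si-CIRBP, so every group carried OGD/R and no library without it was analysed here. The labels do not spell out NC or si-NC, which were read as the control groups, nor the form in which CIRBP was given, the sequence of the siRNA, the times or the doses. They name the cells H9C2, a line from embryonic rat heart, and in another field rat astrocytes, so the cells are uncertain. The series' title puts the question as how CIRBP, a cold-induced protein that binds RNA, alters transcripts under OGD/R.

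The pathway works in a loop. RIG-I (gene Ddx58) and MDA5 (gene Ifih1) are cytosolic helicases that bind double-stranded RNA and signal through Mavs, while LGP2 (gene Dhx58) binds such RNA without a signalling domain and tunes the other sensors. The signal reaches the kinase Tbk1, which phosphorylates the constitutive factor Irf3 and the inducible factor Irf7 so that they switch on interferon genes. Secreted interferon then acts through its receptors and JAK kinases on STAT proteins, of which Stat2 binds Irf9 within the complex ISGF3. ISGF3 binds the interferon-stimulated response element (ISRE) of its target genes, and several genes of the loop, among them Irf7, Irf9 and Stat2, are known to be such targets themselves. Irf1 is induced by interferon gamma and inflammatory signals through the gamma-activated site (GAS), and Irf2 was described as a factor that competes with it.

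Promoter sequences show where such elements lie in front of these genes. RefSeq promoters (rat build GRCr8, 250 bases before to 50 after the start) were matched for 6 of the 9 genes, and Irf2, Ddx58 and Dhx58 are named only. Both strands were searched for the ISRE core GAAANNGAA and for the GAS TTCNNNGAA, which reads the same on either strand. The 5 promoters below are shown because 4 of them hold a match, in capitals, and the fifth, of Irf3, the 1 gene called higher in CIRBP, holds none. Each reads 5′ to 3′ on the strand of its gene.

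Irf7 (chr1:205799974-205800273, minus strand): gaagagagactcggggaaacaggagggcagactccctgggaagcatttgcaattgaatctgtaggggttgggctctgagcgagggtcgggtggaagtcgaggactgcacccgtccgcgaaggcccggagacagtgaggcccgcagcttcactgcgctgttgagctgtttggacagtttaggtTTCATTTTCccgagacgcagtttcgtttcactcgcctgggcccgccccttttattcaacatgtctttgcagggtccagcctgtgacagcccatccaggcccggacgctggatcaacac
Ifih1 (chr3:67683919-67684218, minus strand): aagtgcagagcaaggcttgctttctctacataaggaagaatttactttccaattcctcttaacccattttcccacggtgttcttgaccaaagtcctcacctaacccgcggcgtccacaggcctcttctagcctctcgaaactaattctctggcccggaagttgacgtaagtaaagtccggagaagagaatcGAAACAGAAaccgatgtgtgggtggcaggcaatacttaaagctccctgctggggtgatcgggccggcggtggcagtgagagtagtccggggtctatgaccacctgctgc
Irf9 (chr15:33065586-33065885, plus strand): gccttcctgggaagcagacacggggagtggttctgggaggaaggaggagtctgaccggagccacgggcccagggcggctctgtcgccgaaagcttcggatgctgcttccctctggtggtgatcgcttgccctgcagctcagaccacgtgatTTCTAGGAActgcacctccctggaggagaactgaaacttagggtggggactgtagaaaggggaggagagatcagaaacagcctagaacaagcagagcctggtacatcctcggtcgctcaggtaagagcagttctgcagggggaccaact
Irf1 (chr10:38417685-38417984, plus strand): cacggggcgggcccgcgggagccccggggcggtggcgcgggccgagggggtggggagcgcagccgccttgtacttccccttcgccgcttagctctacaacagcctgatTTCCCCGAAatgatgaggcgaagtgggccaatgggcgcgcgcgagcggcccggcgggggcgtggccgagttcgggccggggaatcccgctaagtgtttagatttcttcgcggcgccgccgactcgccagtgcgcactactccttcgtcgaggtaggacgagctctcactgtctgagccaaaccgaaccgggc
Irf3 (chr1:104616358-104616657, plus strand): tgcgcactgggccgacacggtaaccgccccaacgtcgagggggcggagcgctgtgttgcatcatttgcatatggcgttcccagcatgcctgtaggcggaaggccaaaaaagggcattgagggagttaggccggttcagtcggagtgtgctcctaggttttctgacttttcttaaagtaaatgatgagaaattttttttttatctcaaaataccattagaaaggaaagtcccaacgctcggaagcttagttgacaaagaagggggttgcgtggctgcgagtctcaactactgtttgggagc

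The Irf7 promoter holds the ISRE core on the opposite strand, 68 to 60 bases before the start, read here as TTCATTTTC. The Ifih1 promoter holds it on the gene's own strand as GAAACAGAA, 59 to 51 bases before the start. The Irf9 promoter holds the GAS as TTCTAGGAA, 99 to 91 bases before the start, and the Irf1 promoter as TTCCCCGAA, 142 to 134 bases before the start. No promoter of these 6 genes held both motifs, and the promoter of Stat2 (chr7:1286840-1287139, plus strand) also held neither. Of all 33469 promoters of that length, 9.71% held the ISRE core and 8.87% the GAS. Of 29 matched promoters from a list of ISGF3 target genes, 21 (72.4%) held the ISRE core and 6 (20.7%) the GAS. A match describes the letters in the window and does not show that a factor binds there.

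Levels were compared with limma on log2(FPKM + 1) over 14257 genes, those that reached 1 FPKM in at least 3 libraries. A gene was called at a p-value under 0.05 after Benjamini-Hochberg adjustment over all of them, and a log2 change on this scale understates the change of a gene with a low value. Summed FPKM ran from 457775 to 502889 per library. Relative depth, inferred from the most common ratio of low values, ran from 0.842 to 1.03 of NC library 1. Only 12.1% to 17.6% of the low genes lay at that ratio, and the absolute depth is unknown. The arms differed in their spread: the median SD over genes on the log2 scale was 0.0539 in NC and 0.057 in CIRBP, but 0.133 in si-NC and 0.147 in si-CIRBP. Library 1 of si-NC lay more than 2-fold from the other libraries of its group for 5.24% of genes, library 1 of si-CIRBP for 3.42% and library 2 of si-NC for 3.29%, against 0.666% to 0.828% in the 6 libraries of NC and CIRBP. Several results that rest on these libraries are given with and without them. Cirbp itself was 19.0, 19.8 and 20.1 FPKM in NC and 34.3, 36.5 and 36.5 in CIRBP, a rise of 0.83 on the log2 scale (adjusted p = 2.47e-06). It was 26.7 ± 2.43 FPKM (SD, n = 3) in si-NC and 27.6 ± 1.04 in the libraries labelled si-CIRBP, a change of 0.05 (adjusted p = 0.609), which goes against that label, so no direction below is read as that of less Cirbp.

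Most of the 9 genes were lower in both treated groups than in their controls. In CIRBP against NC, 7 fell (Irf9, Stat2, Irf7, Irf1, Ddx58, Ifih1 and Dhx58), Irf3 rose and Irf2 was not called, against a background of 34.2% of tested genes called lower and 19.7% called higher. Their median log2 change was -1.40, beside -0.08 over all genes. In si-CIRBP against si-NC, 6 fell (Irf9, Stat2, Irf7, Ddx58, Ifih1 and Dhx58) and Irf3, Irf1 and Irf2 were not called, against 20.5% of genes called lower and 9.08% called higher. Their median was -1.72, beside -0.04 over all genes. The falls of Irf9, Irf7, Ddx58, Ifih1 and Dhx58 were called in both arms in all 23 settings run. Scaling the libraries to one median of the tested genes moved the median of all genes by more than 0.1, to 0.03 in CIRBP against NC and 0.06 in si-CIRBP against si-NC. The counts of all genes called lower and higher then went from 4881 and 2814 to 3756 and 4088 in the first comparison and from 2924 and 1294 to 1904 and 2420 in the second. With median ratios they were 3933 and 3882, and 2293 and 1962. In bulk RNA, fewer cells of a type and less RNA per cell cannot be told apart.

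**Figure D1:**
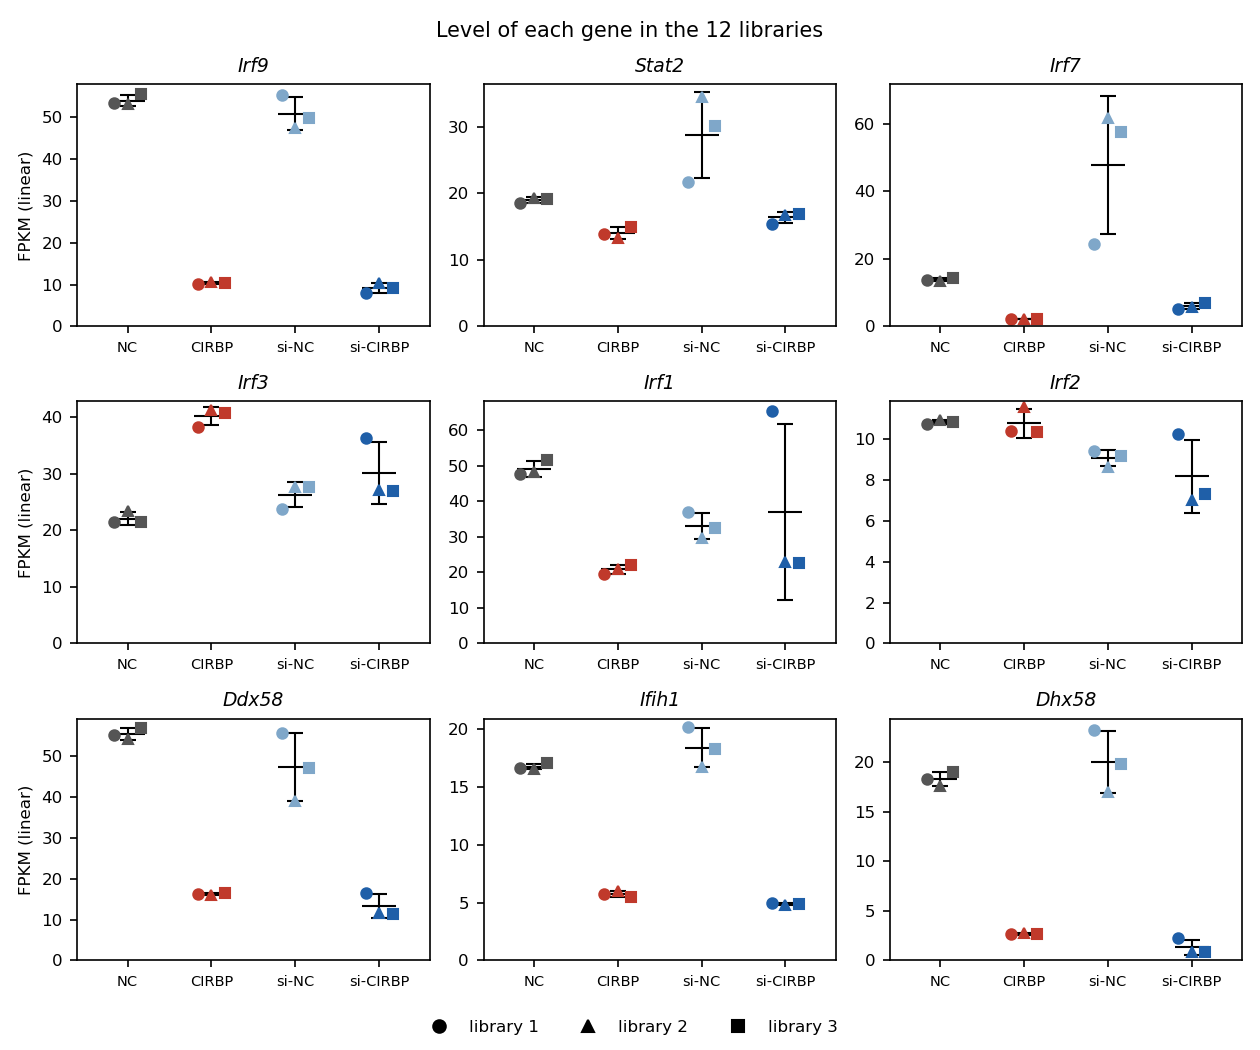
Level of each of the 9 genes in FPKM (linear axis from 0) in the 12 libraries. Circles, triangles and squares are libraries 1, 2 and 3 of a group, and bars are the mean ± SD (n = 3). Irf9, Ddx58, Ifih1 and Dhx58 are low in CIRBP and si-CIRBP and high in both control groups, and Irf3 is highest in CIRBP. Library 1 of si-CIRBP stands above the other 2 for Irf1, Irf3, Irf2, Ddx58 and Dhx58.

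Irf9 (ENSRNOG00000019478), the DNA-binding subunit of ISGF3, was 53.3, 53.1 and 55.5 FPKM in the 3 NC libraries and 10.2, 10.7 and 10.5 in CIRBP. It was 55.3, 47.4 and 49.9 FPKM in si-NC and 7.88, 10.3 and 9.21 in si-CIRBP. Every treated library thus lay under 11 FPKM and every control library above 47 FPKM. The mean fell 5.17-fold in CIRBP against NC (log2 change -2.26, SE 0.0838, adjusted p = 3.42e-08) and 5.57-fold in si-CIRBP against si-NC (-2.36, adjusted p = 5.98e-08). The 2 falls differed by 0.10 (adjusted p = 0.625), and the control groups overlapped, as did the treated groups.

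Stat2 (ENSRNOG00000031081), the partner that gives ISGF3 its transactivation domain, moved less. It was 18.5, 19.3 and 19.2 FPKM in NC and 13.9, 13.3 and 15.0 in CIRBP, 1.35-fold lower (log2 change -0.41, SE 0.130, adjusted p = 0.0203). It was 21.8, 34.5 and 30.1 FPKM in si-NC and 15.4, 16.8 and 17.0 in si-CIRBP, 1.76-fold lower (-0.75, adjusted p = 0.00178). The groups did not overlap in either arm. The falls differed between the arms by 0.34 (adjusted p = 0.228), and by 0.53 without si-NC library 1 (adjusted p = 0.00609). The call in CIRBP against NC was lost when libraries were brought to one median (adjusted p = 0.124) or scaled with median ratios (0.105), and without NC library 2 (0.0556), NC library 3 (0.0543), CIRBP library 1 (0.0541) or CIRBP library 2 (0.0672), while that in the other arm held in all 23 settings.

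Irf9 and Stat2 therefore changed their proportion. The ratio of Irf9 to Stat2 FPKM within a library was 2.84 ± 0.0741 (SD, n = 3) in NC and 0.745 ± 0.0534 in CIRBP. In si-NC the libraries gave 2.54, 1.37 and 1.66, and in si-CIRBP 0.556 ± 0.0524. Irf9 mRNA exceeded Stat2 mRNA in all 6 control libraries and was below it in all 6 treated libraries. This ratio and those below were chosen after the levels had been seen and are given as descriptions with no test.

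Irf7 (ENSRNOG00000017414), the interferon-inducible factor that amplifies interferon transcription, was the lowest of the 9 genes in CIRBP. It was 13.8, 13.4 and 14.3 FPKM in NC and 2.05, 2.29 and 2.23 in CIRBP, a 6.32-fold fall (log2 change -2.22, SE 0.271, adjusted p = 5.47e-05). It was 24.4, 61.6 and 57.5 FPKM in si-NC and 5.14, 5.88 and 6.89 in si-CIRBP, an 8.01-fold fall (-2.71, adjusted p = 7.62e-05). Library 1 of si-NC was far below the other 2 of its group, yet all 3 lay above every other library. The order of the groups was si-NC, NC, si-CIRBP and CIRBP, with no overlap between neighbours, and Stat2 had the same order, also with no overlap. The falls of the 2 arms differed by 0.49 (adjusted p = 0.426), and by 0.91 without si-NC library 1 (adjusted p = 0.00182).

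Irf3 (ENSRNOG00000043388), the constitutive factor that Tbk1 activates after RNA sensing, went the other way. It was 21.4, 23.3 and 21.4 FPKM in NC and 38.3, 41.2 and 40.7 in CIRBP, 1.82-fold higher (log2 change 0.84, SE 0.107, adjusted p = 7.69e-05). It was 23.7, 27.6 and 27.6 FPKM in si-NC and 36.4, 27.0 and 26.9 in si-CIRBP, where only library 1 stood above the si-NC range (0.18, adjusted p = 0.244). The difference between the arms was called (0.66, SE 0.151, adjusted p = 0.0144), and it was called in all 22 settings in which it could be tested. Bcl2l12, a gene that overlaps Irf3 in RefSeq, rose from 8.64 ± 0.447 to 18.2 ± 0.996 FPKM (SD, n = 3) in CIRBP against NC (log2 change 1.00, adjusted p = 5.86e-07). In si-CIRBP against si-NC it changed by 0.05 (adjusted p = 0.622). The sources used here do not give the strand setting, so reads of the overlap could count for either gene, and their part in the rise of Irf3 was not tested. Within a library, the ratio of Irf7 to Irf3 was 0.629 ± 0.0480 in NC, 0.0545 ± 0.00092 in CIRBP and 0.205 ± 0.0582 in si-CIRBP, and it was 1.03, 2.24 and 2.08 in the si-NC libraries. Irf7 thus exceeded Irf3 in si-NC alone among the 4 groups.

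**Figure D2:**
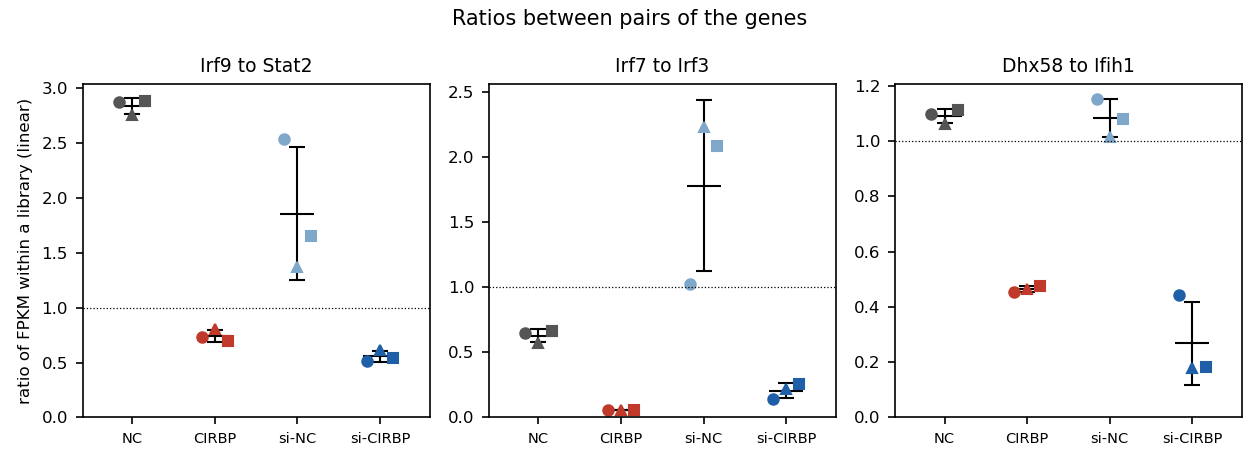
Ratios of FPKM within a library for 3 pairs of the genes (linear axis from 0, dotted line at 1). Circles, triangles and squares are libraries 1, 2 and 3, and bars are the mean ± SD (n = 3). The ratio of Irf9 to Stat2 is above 1 in all control libraries and below 1 in all treated libraries, and so is that of Dhx58 to Ifih1.

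Irf1 (ENSRNOG00000008144), a factor induced by interferon gamma, was 47.6, 48.2 and 51.8 FPKM in NC and 19.5, 20.9 and 22.2 in CIRBP, 2.36-fold lower (log2 change -1.20, SE 0.314, adjusted p = 0.00777). It was 36.9, 29.7 and 32.6 FPKM in si-NC but 65.5, 22.8 and 22.7 in si-CIRBP, where library 1 held the highest of all 12 values and the other 2 lay below every si-NC library. The fitted change was -0.02 (adjusted p = 0.969). Without si-CIRBP library 1 it was -0.52 (adjusted p = 0.00132), so 1 library decides whether Irf1 is called in that arm. The difference between the arms was -1.18 (adjusted p = 0.094), and -0.68 without that library (adjusted p = 0.00198).

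Irf2 (ENSRNOG00000009824), which shares binding sites with Irf1, hardly moved in CIRBP. It was 10.7, 10.9 and 10.8 FPKM in NC and 10.4, 11.6 and 10.3 in CIRBP (log2 change -0.01, SE 0.112, adjusted p = 0.966), a value whose sign changed to 0.13 after scaling to one median and to 0.11 with median ratios. It was 9.40, 8.62 and 9.18 FPKM in si-NC and 10.2, 6.99 and 7.31 in si-CIRBP (-0.15, adjusted p = 0.351). Library 1 of si-CIRBP was again the high one, and without it Irf2 was called lower (-0.30, adjusted p = 0.00359). The difference between the arms was 0.14 (adjusted p = 0.592), and 0.30 without that library (adjusted p = 0.0205). The ratio of Irf1 to Irf2 within a library was 4.55 ± 0.201 in NC, 1.95 ± 0.177 in CIRBP and 3.64 ± 0.254 in si-NC (SD, n = 3), and in the si-CIRBP libraries it was 6.40, 3.27 and 3.101. RefSeq places 3 other genes over Irf2 and 1 over Ddx58, so their levels carry the same uncertainty about strand as that of Irf3.

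The 3 sensors fell together. Ddx58 (RIG-I, ENSRNOG00000006384) was the most abundant of the 9 genes in NC, with 55.1, 54.2 and 56.9 FPKM, and it was 16.2, 16.1 and 16.6 in CIRBP. It was 55.7, 39.1 and 47.1 FPKM in si-NC and 16.6, 11.6 and 11.5 in si-CIRBP. Treated and control libraries stood well apart. The treated groups overlapped only through si-CIRBP library 1, and si-CIRBP libraries 2 and 3 lay below every CIRBP library. The fall was 3.40-fold in CIRBP against NC (log2 change -1.70, SE 0.140, adjusted p = 3.43e-06) and 3.58-fold in si-CIRBP against si-NC (-1.77, adjusted p = 1.75e-05), with a difference between the arms of 0.06 (adjusted p = 0.858).

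Ifih1 (MDA5, ENSRNOG00000006227) was 16.7, 16.6 and 17.0 FPKM in NC and 5.75, 5.97 and 5.47 in CIRBP, 2.92-fold lower (log2 change -1.40, SE 0.0677, adjusted p = 1.38e-07). It was 20.1, 16.7 and 18.3 FPKM in si-NC and 5.004, 4.78 and 4.87 in si-CIRBP, 3.77-fold lower (-1.72, adjusted p = 1.04e-07). The groups did not overlap in either arm, and the 3 si-CIRBP values lay below the 3 CIRBP values. The fall in si-CIRBP was the larger by 0.32 (SE 0.0958, adjusted p = 0.0437), a call that held in 8 of 22 settings and was lost, among others, without any 1 of the NC libraries (adjusted p from 0.0831 to 0.101).

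Dhx58 (LGP2, ENSRNOG00000018247) was the lowest of the 9 genes in si-CIRBP. It was 18.3, 17.6 and 19.0 FPKM in NC and 2.61, 2.77 and 2.61 in CIRBP, 6.86-fold lower (log2 change -2.39, SE 0.186, adjusted p = 2.37e-06). It was 23.2, 17.0 and 19.8 FPKM in si-NC and 2.22, 0.862 and 0.883 in si-CIRBP, 15.2-fold lower (-3.22, adjusted p = 2.01e-06). This was the 9th largest change in either direction of the 14257 genes in that arm on the log2(FPKM + 1) scale, and the largest among the 9 genes in both arms, but with a pseudocount of 5 Irf9 changed more in CIRBP (-1.93 against -1.60) and Irf7 in si-CIRBP (-2.18 against -1.98). Without si-CIRBP library 1 the mean was 22.9-fold lower (-3.48, adjusted p = 6.24e-08). All si-CIRBP libraries lay below all CIRBP libraries, and library 1 was the nearest to them. The difference between the arms was 0.82 (adjusted p = 0.0542), and 1.08 without si-CIRBP library 1 (adjusted p = 0.00057). Without si-NC library 2 it was 0.93 (adjusted p = 0.042).

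The sensors did not keep their proportions. Dhx58 and Ifih1 stood at similar FPKM in the controls, with a ratio of 1.09 ± 0.0254 in NC and 1.08 ± 0.0693 in si-NC (SD, n = 3). It was 0.466 ± 0.0116 in CIRBP and 0.443, 0.180 and 0.181 in the si-CIRBP libraries. Ifih1 to Ddx58 stayed between 0.2996 and 0.428 in all 12 libraries, so of the 3 sensors LGP2 mRNA fell the furthest relative to the others.

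**Figure D3:**
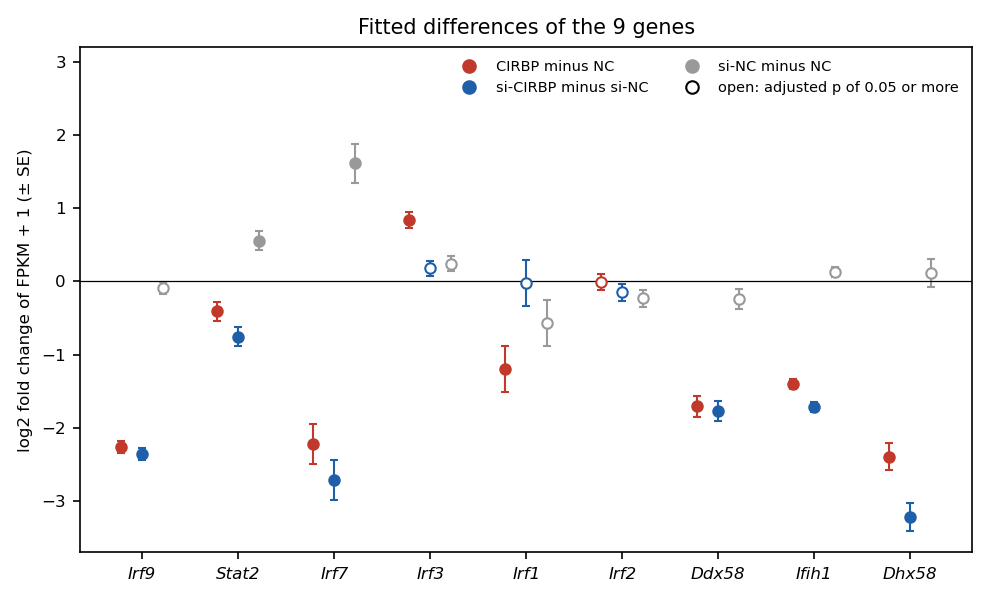
Fitted log2 changes of FPKM + 1 (± SE) of the 9 genes in 3 comparisons. Filled points have an adjusted p under 0.05 and open points do not. Irf9, Irf7, Ddx58, Ifih1 and Dhx58 lie between -3.22 and -1.40 in both arms, Irf3 is called higher in CIRBP alone, and Irf7 and Stat2 are called higher in si-NC against NC.

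The 2 control groups were compared because levels across the arms depend on them. Irf7 was 3.46-fold higher in si-NC than in NC (log2 change 1.61, adjusted p = 0.00202) and Stat2 1.52-fold higher (0.55, adjusted p = 0.00927), and both were called in all 23 settings. The other 7 genes were not called, with changes from -0.56 for Irf1 (adjusted p = 0.191) to 0.24 for Irf3 (adjusted p = 0.105). This gave 2 of 9 higher and 0 lower, against 12.5% of genes called higher and 21.9% called lower. With only the NC and si-NC libraries in the fit, Irf1 (adjusted p = 0.00711) and Irf2 (0.0241) were also called, both lower in si-NC. The share of all genes called in that fit is not given here. Without si-CIRBP library 1, 5 were called, with Irf3 added as higher and Irf1 and Irf2 as lower, and without library 1 of si-NC and of si-CIRBP 7 were, with Irf9 and Ddx58 also lower. In these fits 17.5% and 21.0% of all genes were called higher and 29.6% and 36.4% lower. Scaling to one median changed the counts of all genes called lower and higher from 3126 and 1783 to 2494 and 2148, and median ratios to 2526 and 2175. The sources used here do not say whether NC and si-NC came from the same cells, and only the NC and CIRBP columns bear the prefix ad, of unstated meaning, so whatever it marks and the arm cannot be told apart. Muscle markers differed between them: 9 of 11 were in the table, and their summed level was 4.66 to 6.31 FPKM in NC, 6.57 to 7.93 in CIRBP, 82.7 to 1072 in si-NC and 493 to 811 in si-CIRBP. The highest of them was Tnnt2 in NC and CIRBP and Acta2 in si-NC and si-CIRBP. Acta2 was 73.8, 954 and 722 FPKM in the si-NC libraries, so the library with the least Acta2 was also the one with the least Irf7, and the part of this in the result was not tested.

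Macrophage markers were checked because such cells express many interferon genes. Of 11, the table held 4, with a summed level of 15.0 to 15.6 FPKM in NC, 15.3 to 16.5 in CIRBP, 18.5 to 20.01 in si-NC and 15.6 to 17.0 in si-CIRBP, mostly Cd14, and Ptprc, Aif1 and Itgam were not among the 4. Of 5 plasmacytoid and lymphoid markers 2 were in the table, and their sum of 24.4 to 26.5 FPKM in NC and 18.5 to 19.6 in CIRBP, 18.8 to 21.6 in si-NC and 15.7 to 17.6 in si-CIRBP came mostly from Tcf4. Endothelial markers (4 of 6) summed to 5.08 to 5.56, 7.56 to 8.33, 2.81 to 4.57 and 4.79 to 4.91 FPKM, with the groups in the same order. Of the astrocyte markers 6 of 7 were found and Aqp4 was not, with sums of 160.3 to 170.4, 184.9 to 196.7, 124.4 to 168.4 and 119.98 to 165.04 FPKM in that order, mostly S100b. The cardiac factor Nkx2-5 was listed at 0 in NC and CIRBP. The part of these markers in the changes of the 9 genes was not tested.

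Across both arms, Irf3 and Ifih1 were the 2 genes whose changes differed by a test of the difference itself, both with the higher value in the CIRBP arm, against 6.87% of genes called in that direction and 10.9% in the other. Scaling to one median changed these counts of genes called lower and higher from 1555 and 980 to 1461 and 1192, and median ratios to 1376 and 1310. Without library 1 of si-NC and of si-CIRBP, a check added after the data had been seen, 7 of the 9 differed: Irf3, Ifih1, Stat2, Irf7, Irf2 and Dhx58 in the same direction and Irf1 in the other. In that fit 16.2% of all genes were called in the first direction and 25.2% in the other. Without si-NC library 2 it was 3 of the 9, a count given without the share of all genes in that fit. With both libraries 1 left out, 7 of the 9 were lower and 1 higher in CIRBP against NC, beside 40.8% and 26.4% of all genes. In si-CIRBP against si-NC 8 were then lower, beside 25.5% of all genes called lower and 16.3% called higher.

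The rest of the pathway was read from fixed lists, without the 9 genes. The lists were chosen with earlier results of these data known, so their counts are descriptions and no independent support. Few of the interferon genes themselves were measured: of 14 ligands and related cytokines 5 were in the table and 3 were tested. Ifnb1, the interferon that Irf3 and Irf7 induce in most cells, was 0.439, 1.01 and 0.670 FPKM in NC and in CIRBP it was listed at 0 in libraries 1 and 2 and was 0.0700 in library 3. It was 0.390, 0.644 and 0.342 FPKM in si-NC and listed at 0 in all 3 si-CIRBP libraries. It was under the filter and was not tested, but no treated library reached the lowest control library. Ifne, a type I interferon known from epithelia, went from 2.62 ± 0.179 to 1.61 ± 0.265 FPKM in CIRBP against NC (SD, n = 3, log2 change -0.48, adjusted p = 0.0082) and was not called in the other arm.

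The receptors and JAK-STAT proteins moved little as a list. Of 16, 14 were tested. In CIRBP against NC 3 were lower and 2 higher, beside 34.2% and 19.7% of all tested genes. In si-CIRBP against si-NC 3 were lower and 0 higher, beside 20.5% and 9.08%. The medians of the list were -0.04 and -0.06, and those of all genes -0.08 and -0.04. Without NC library 2, NC library 3, CIRBP library 1 or CIRBP library 2, the first count was 3 called in place of 5, and it was 8 with only the compared libraries in the fit or with a variance factor per group. The second count of 3 became 6 without si-CIRBP library 1 and 1 with only the compared libraries. Ifnar1, a chain of the type I interferon receptor, rose from 14.6 ± 0.258 to 21.5 ± 0.897 FPKM in CIRBP (0.52, adjusted p = 8.82e-05), and its other chain, Ifnar2, was 11.9 in NC and 12.5 in CIRBP (adjusted p = 0.624). In si-NC Ifnar2 was 13.4, 13.1 and 14.0 FPKM and in si-CIRBP 13.4, 10.1 and 10.4 (-0.25, adjusted p = 0.0634), and without si-CIRBP library 1 it was called lower (-0.36, adjusted p = 0.000695). Of the kinases at the receptor, Jak1 rose by 0.15 (adjusted p = 0.0212) and Tyk2 fell by 0.32 (adjusted p = 0.00399) in CIRBP.

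Downstream of the sensors, 20 of 28 adaptor, kinase and further sensor genes were in the table and 18 were tested. In CIRBP against NC 14 were lower and 0 higher, with a median of -0.46, beside 34.2% and 19.7% of all tested genes. In si-CIRBP against si-NC 11 were lower and 0 higher, with a median of -0.29, beside 20.5% and 9.08%. The second count fell to 4 after scaling to one median, to 3 with only the compared libraries in the fit, to 4 with a variance factor per group, to 5 without si-NC library 1 and to 6 without si-NC library 3. Eif2ak2 (PKR), a kinase that double-stranded RNA activates, fell from 49.6 ± 2.05 to 16.2 ± 0.695 FPKM in CIRBP (adjusted p = 9.43e-09) and from 49.1 ± 0.900 to 20.9 ± 0.349 in si-CIRBP (adjusted p = 1.15e-07). Trim25, a ubiquitin ligase that assists RIG-I, fell by 1.41 (adjusted p = 5.3e-06) and by 0.82 (adjusted p = 0.000838) on the log2 scale. Adar, which edits double-stranded RNA and so limits its sensing, fell by 1.20 (adjusted p = 8e-06) and by 1.37 (adjusted p = 2.11e-05). Tbk1 fell by 0.85 in CIRBP (adjusted p = 1.69e-06) and by 0.21 in si-CIRBP (adjusted p = 0.0278), a difference of -0.64 (adjusted p = 0.00136). Traf3, the adaptor between Mavs and Tbk1, had a difference of -0.71 (adjusted p = 0.00866) in the same direction. Mavs, the adaptor of both sensors, was 9.95 FPKM in NC and 7.45 in CIRBP (-0.38, adjusted p = 0.0144). In the other arm Mavs was 9.34 FPKM in si-NC and 7.30 in si-CIRBP (-0.32, adjusted p = 0.0499).

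Of 22 negative regulators 20 were tested. In CIRBP 12 were lower and 4 higher, beside 34.2% and 19.7% of all tested genes. In si-CIRBP 8 were lower and 1 higher, beside 20.5% and 9.08%. The medians of the list were -0.26 and -0.16. Usp18, which removes Isg15 and blocks the receptor, fell from 59.1 ± 4.92 to 6.63 ± 0.357 FPKM in CIRBP (log2 change -2.98, adjusted p = 7.6e-07) and from 55.7 ± 7.73 to 6.98 ± 2.84 in si-CIRBP (-2.88, adjusted p = 6.14e-06). Trim21, a ubiquitin ligase induced by interferon, fell by 1.66 (adjusted p = 8.87e-08) and by 1.31 (adjusted p = 1.52e-06). Cyld, a deubiquitinase, fell by 1.34 in CIRBP (adjusted p = 2.26e-07) and by 0.62 in si-CIRBP (adjusted p = 0.000186). Of the 4 that rose in CIRBP, Rnf5, a membrane-bound ubiquitin ligase, had the smallest adjusted p. It went from 24.2 ± 0.969 to 40.6 ± 2.29 FPKM (0.72, adjusted p = 7.85e-06). Socs3 rose from 15.0 ± 1.06 to 34.7 ± 2.76 FPKM (1.16, adjusted p = 0.00521) and Socs1 from 4.94 ± 0.239 to 9.72 ± 1.02 (0.85, adjusted p = 0.000721). Ptpn6 rose from 1.42 ± 0.0385 to 3.42 ± 0.195 FPKM (0.86, adjusted p = 3.77e-05). Socs3, Socs1 and Ptpn6 were not called in si-CIRBP against si-NC. Tnfaip3 (A20), a ubiquitin-editing brake on NF-kB, fell from 42.0 ± 1.17 to 2.14 ± 0.363 FPKM in CIRBP (-3.78, adjusted p = 2.41e-05). In si-CIRBP it was 24.5, 5.48 and 5.80 FPKM against 26.2 ± 3.63 in si-NC (-1.38, adjusted p = 0.0284), and without library 1 the change was -2.03 (adjusted p = 3.61e-06). Without library 1 of si-NC and of si-CIRBP, 14 of the 20 were called in the second arm in place of 9. Of these 14, 9 were lower and 5 higher, beside 25.5% and 16.3% of all genes. Usp18 and Trim21 inhibit the pathway and are themselves known to be induced by interferon, so the list mixes inhibitors with targets.

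Among the other IRF family genes and cofactors 8 of 13 were tested. Of these, 4 were lower in CIRBP and 5 in si-CIRBP, beside 34.2% and 20.5% of all tested genes. In either arm 0 were higher, beside 19.7% and 9.08%. The counts of lower genes were 7 and 1 with only the compared libraries in the fit, and the first was 7 with a variance factor per group. Batf3, a bZIP partner of IRF factors, fell from 4.17 ± 0.240 to 0.400 ± 0.257 FPKM in CIRBP (log2 change -1.90, adjusted p = 2.43e-05). It also fell in si-CIRBP (-0.78, adjusted p = 0.0167). The acetyltransferase Ep300 fell by 1.06 (adjusted p = 6.13e-05) and by 0.68 (adjusted p = 0.00342), and its relative Crebbp fell by 0.55 (adjusted p = 0.00832) and by 0.66 (adjusted p = 0.00717). Nlrc5, the transactivator of MHC class I genes, fell from 1.39 ± 0.0726 to 0.267 ± 0.0202 FPKM in CIRBP (adjusted p = 1.38e-05). In si-CIRBP it fell as well (-0.67, adjusted p = 0.000529).

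Most target genes of these factors were lower too. Of 43 ISGF3 target genes 37 were tested, and 35 were lower in each arm, with 1 higher in CIRBP and 0 in si-CIRBP, and medians of -1.69 and -1.73. Of all tested genes, 34.2% and 20.5% were called lower in the 2 arms and 19.7% and 9.08% higher. This list shares genes such as Usp18, Isg15 and Eif2ak2 with lists above. Mx2, a dynamin-like antiviral GTPase, fell from 68.8 ± 4.62 to 1.16 ± 0.197 FPKM in CIRBP (adjusted p = 3.98e-10) and from 88.0 ± 9.22 to 1.57 ± 0.122 in si-CIRBP (adjusted p = 3.29e-10). Samd9, an antiviral factor, fell from 49.1 ± 0.819 to 1.43 ± 0.137 FPKM in CIRBP (adjusted p = 9.43e-09). It was 53.6 ± 6.47 FPKM in si-NC and 2.72 ± 0.738 in si-CIRBP. Ifi27l2b was the 1 gene that rose in CIRBP, from 25.2 ± 3.04 to 99.1 ± 10.2 FPKM (log2 change 1.94, adjusted p = 5.24e-05), and it differed between the arms by 2.50 (adjusted p = 0.00106). Mx and Ifi27 genes are families of near-identical copies, and the sources used here do not say how their shared reads were counted. Between the controls 16 of the 37 were higher in si-NC and 1 was lower, beside 12.5% and 21.9% of all tested genes. Among those higher was Mx1, at 4.59 ± 0.281 FPKM in NC and 17.9 ± 1.87 in si-NC (1.76, adjusted p = 1.03e-05).

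Of 27 targets of Irf1 and interferon gamma 20 were tested. In CIRBP 12 were lower and 2 higher, beside 34.2% and 19.7% of all tested genes. In si-CIRBP 15 were lower and 0 higher, beside 20.5% and 9.08%. The medians of the list were -0.66 and -0.75. Irgm, an immunity-related GTPase, fell from 17.2 ± 0.475 to 3.98 ± 0.330 FPKM in CIRBP (log2 change -1.88, adjusted p = 1.07e-05) and by 1.91 in si-CIRBP (adjusted p = 5.55e-05). Tapbp, which loads peptides on MHC class I, fell by 0.66 (adjusted p = 1.67e-05) and by 0.64 (adjusted p = 0.000111). Psmb9, an immunoproteasome subunit, was 13.7 ± 0.192 FPKM in NC and 20.1 ± 1.16 in CIRBP but 24.6 ± 3.96 in si-NC and 19.6 ± 2.83 in si-CIRBP, and its changes differed between the arms by 0.83 (adjusted p = 0.00693). The fall of this list in si-CIRBP went along with no call for Irf1 itself when all 3 si-CIRBP libraries were used.

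**Figure D4:**
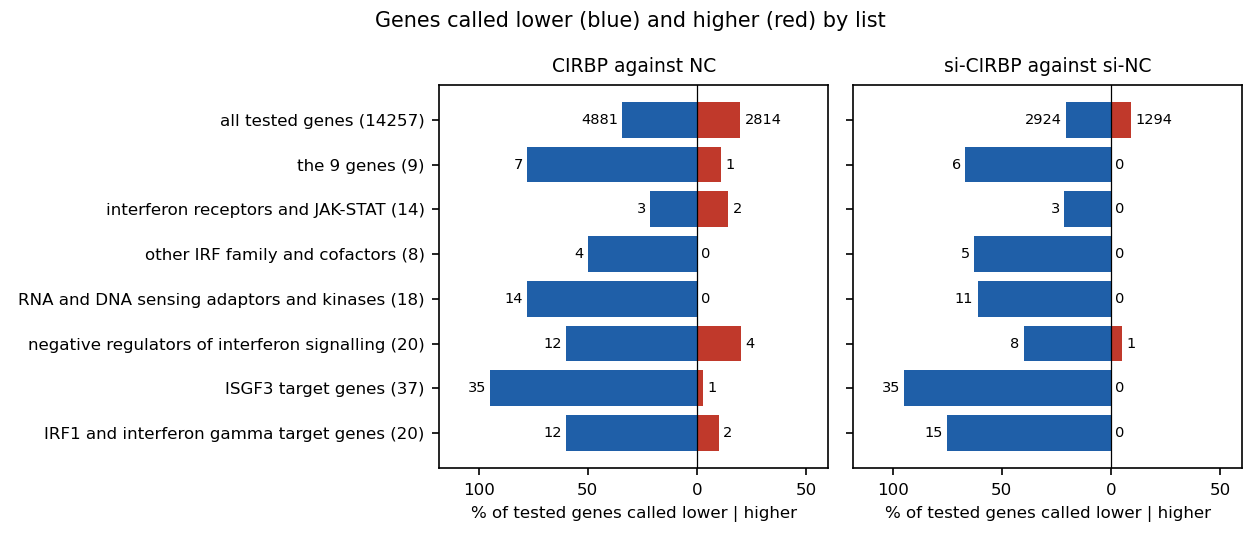
Share of tested genes called lower (left, blue) and higher (right, red) in CIRBP against NC and in si-CIRBP against si-NC, as % of the tested genes of each list (their number in brackets), with the number called beside each bar. ISGF3 target genes have 35 of 37 lower in each arm, beside 34.2% and 20.5% of all tested genes, and receptors and JAK-STAT genes have 3 of 14 lower in each. The lists were chosen with earlier results of these data known.

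The genes most like each of the 9 were found by Pearson's r over the 12 libraries on log2(FPKM + 1), given as a description: the libraries share their groups, so most of each r comes from the differences above. Nearest to Irf9 were Dtx3l (0.994), Apol9a (0.993) and Adar (0.992). Nearest to Ddx58 were Oas1f (0.995), Myc (0.992) and Helz2 (0.991), to Ifih1 Oas1a (0.998), Oas2 (0.995) and Dtx3l (0.993), and to Dhx58 Oas1a (0.994), Oas1f (0.989) and Herc6 (0.989). Nearest to Stat2 were Ube2l6 (0.978), Ttc13 (0.971) and Vegfb (0.962), and to Irf7 Sp100 (0.972), Tyrp1 (0.970) and Gbp6 (0.970). Nearest to Irf3 were Abcc5 (0.982), Shmt2 (0.977) and Smim14 (0.974), to Irf1 Ell (0.976), H4f3 (0.968) and Ola1 (0.961), and to Irf2 Gga3 (0.973), Ern1 (0.971) and Tmem167b (0.958). Oas1a and Oas1f, of a family of interferon-induced oligoadenylate synthetases, and Dtx3l were each near to 2 of the 9 genes.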

How the data were processed

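Poly-A RNA sequencing (paired-end) was used as FPKM per gene and library, as the authors computed and deposited it, per the file headers. Per the submitters' processing notes, the tools included Cufflinks 2.2.1 and Bowtie2 2.3.3.1 and the builds GRCm38 and mm10 (both mouse), with no role for each, while the gene identifiers are those of rat in Ensembl. The sources used here do not give the annotation, the strand setting or how reads of near-identical genes were shared out. Libraries were grouped by title, which calls them biological replicates. All 12 were fitted in R 4.3.3 by limma 3.58.1 (eBayes, trended prior) to log2(FPKM + 1) values, with 1 coefficient per group, in 14257 genes with at least 1 FPKM in 3 libraries, two-sided and adjusted over all of them. An exact test of 3 against 3 libraries could not go below p = 0.1 and was not used. The fit was tested on simulated data. Named genes were the 9 genes, Cirbp, up to 4 called genes per list and comparison with the smallest adjusted p, and the 3 nearest neighbours of each gene. Ifnb1, Ifnar2, Mavs, Acta2, Bcl2l12, Socs1, Socs3, Tnfaip3 and Ifi27l2b were added after their values were seen. A single list gene that the rule took is not reported here. The 9 genes and the lists were chosen with earlier results of these data known. Alternatives changed the pseudocount, filter, scaling, libraries in the fit, variance model, replicate block and each library in turn. Figures were drawn with matplotlib 3.10.9.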

Additional observations from a re-analysis of the deposited data

Results flagged for a closer look

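The change of Irf3 differed between the arms by 0.66 on the log2 scale (SE 0.151, adjusted p = 0.0144 by limma), with a rise in CIRBP against NC and no call in si-CIRBP against si-NC. The change of Ifih1 differed by 0.32 (SE 0.0958, adjusted p = 0.0437), with falls in both arms and the larger one in si-CIRBP. Each was flagged because the difference itself passed the test, and the second passed it in 8 of 22 settings.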

How the results depend on the processing

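The 6 falls in si-CIRBP against si-NC, and the falls of Irf9, Irf7, Irf1, Ddx58, Ifih1 and Dhx58 and the rise of Irf3 in CIRBP against NC, kept their direction and call in all 23 settings. The number of the 9 genes whose change differed between the arms was 1 with a pseudocount of 5 or with no filter, 1 to 5 with single libraries left out and 7 without both libraries 1 of si-NC and si-CIRBP. Between the controls it was 4 with only the compared libraries, 2 to 5 with single libraries left out and 7 without both libraries 1. For the fit with 4, the count of all genes called is not given here. Over all genes, si-CIRBP against si-NC gave 1155 calls with only the compared libraries and 2019 with a variance factor per group, in place of 4218. The difference between the arms gave 1596 to 4503 with single libraries left out and 5899 without both libraries 1, in place of 2535. The controls gave 3085 to 6721 and 8188, in place of 4909. Signs changed for values near 0: Irf2 in CIRBP against NC was 0.13 (one median), 0.11 (median ratios) and -0.058 to 0.017 with single libraries left out, and Irf1 in si-CIRBP against si-NC was 0.10, 0.053 and -0.52 to 0.23. The difference for Ddx58 was -0.058 to 0.23 with single libraries left out. Without both libraries 1, Irf3 in si-CIRBP against si-NC was -0.031 and the difference for Irf9 was -0.054. The cause was not tested. The labels do not say whether a replicate number marks a shared batch or day. Same-numbered NC and CIRBP libraries deviated with r = 0.0482 to 0.0995, each best with its own number. Those of si-NC and si-CIRBP deviated with -0.0898 to 0.0405, and only library 3 of si-NC was best with its own number. Whether the numbers pair the libraries is thus not settled. With the replicate block 8, 6, 2 and 2 of the 9 genes were called in the 4 comparisons and 7512, 3926, 2232 and 4525 of all genes. The difference between the arms then had an adjusted p of 0.064 for Ifih1 and 0.0465 for Dhx58. FPKM hold no absolute depth, so the precision of low values such as those of Ifnb1 is unknown.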
